A study of Mus musculus with 3 samples.

Results

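The genes described here carry cell division from the entry into mitosis to cytokinesis, together with the kinesins that carry cargo and serve as their comparison. They were taken by name: every gene called Kif with a number (37 genes) or Kifc with a number (3 genes), every gene called Cenp with a letter (19 genes), and Mki67, Top2a, Bub1, Bub1b, Aurka, Aurkb, Plk1, Ccna2, Ccnb1, Ccnb2, Cdk1, Ttk, Ndc80 and Nuf2 (14 genes). This gave 73 genes of 51803 gene symbols, and 67 of the 73 were expressed, that is, over 0.3 FPKM in any library. FPKM, the deposited unit, scales the fragments of a transcript to its length and to the depth of the library, and the transcripts of a gene were summed. Kif2b was listed at 0 in all 3 libraries, and Kif6, Kif19a, Kif26a, Kif26b and Kif27 stayed at or under 0.3 FPKM.

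RNA was sequenced from 3 stable lines of mpkCCD cells, a mouse kidney collecting duct line re-cloned for high Aqp2 expression, each giving 1 library. The shCtrl cells carried a control hairpin, and the shGR1 and shGR2 cells each carried a different hairpin against the glucocorticoid receptor, all delivered by lentivirus. The cells, between passages 18 and 32, grew on membrane supports, serum and supplements other than dexamethasone were withdrawn, and no line received dDAVP, the vasopressin analog. Dexamethasone, a glucocorticoid receptor agonist, was therefore shared by all 3 groups, and a line is 1 transduced population, so that a difference of a single line from shCtrl has no replicate check.

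In dividing cells, mitotic kinesins slide, bundle or shorten the microtubules of the spindle, carry chromosomes to its equator and build the midzone at which the cell cleaves. Kinetochores, built on centromere proteins of the CENP family, attach chromosomes to the spindle, and cyclin-dependent kinase, Polo and Aurora kinases time these steps. The transcripts of these genes are known to accumulate in G2 and M phase and to be low in resting cells, whereas transport kinesins move vesicles, mitochondria and ciliary cargo in dividing and resting cells alike.

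Nr3c1, the receptor gene that the hairpins target, was at 30.2 FPKM in shCtrl, 4.41 FPKM in shGR1 and 9.13 FPKM in shGR2, or 14.6% and 30.3% of the control. The paper reports a weaker reduction of the receptor mRNA, nearly equal in shGR1 and shGR2. It lists quantitative PCR primers for Nr3c1, so its measure may differ from the FPKM of 1 library per line. Of 10 genes of principal cells 8 were expressed, among them Aqp2 at 9.55 FPKM in shCtrl, 0.751 FPKM in shGR1 and 2.14 FPKM in shGR2 and the sodium channel subunit Scnn1a at 168, 21.7 and 27.2 FPKM. Of the 8, 5 were below shCtrl in both lines, Aqp3 was above it in both (6.49, 9.11 and 8.97 FPKM), and Hsd11b2 (27.8, 19.5 and 55.8 FPKM) and Aqp4 lay on either side. Of the markers of other cells, 2 of 6 proximal tubule, 1 of 4 loop and distal tubule, 2 of 7 intercalated cell, 3 of 5 fibroblast, 1 of 6 leukocyte and 1 of 5 endothelial genes were over 0.3 FPKM, and Slc34a1, Slc22a6 and Foxi1 were at 0 in all libraries. The proximal tubule genes summed to 3.67 to 6.62 FPKM, the fibroblast genes to 3.67 to 8.77 FPKM, and the leukocyte genes to 2.62 to 3.26 FPKM over the 3 libraries. The intercalated cell genes summed higher, to 52.5 FPKM in shCtrl, 22.6 FPKM in shGR1 and 24.3 FPKM in shGR2. Most of that came from Atp6v1b1 (39.4, 20.2 and 18.1 FPKM) and Rhcg (13.0, 2.31 and 6.08 FPKM), both below shCtrl in both lines. The number of genes over 0.3 FPKM was 14388 to 14484 per library.

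Among the expressed mitosis and kinesin genes, 45 of 67 were above shCtrl in both knockdown lines, 6 were below it in both, and 16 lay on either side. Of the 15438 expressed genes, 31.8% lay above shCtrl in both lines and 43.8% below. The median log2 ratio of the 67 genes was 0.35 in shGR1 and 0.22 in shGR2, against -0.03 and -0.07 over all expressed genes. With the transport and other kinesins set aside, among them Kif2a, which acts in interphase and mitosis, 45 genes of mitosis remained. Of these, 37 were above shCtrl in both lines and only Cenpx was below in both. A further 5 transport kinesins and 3 kinesins of other roles were above shCtrl in both lines. Both lines were divided by the same control library, so that the ratios of shGR1 and shGR2 share whatever is particular to shCtrl, and the knockdown cannot be told apart from a property of that 1 library. In these bulk samples, more cells in G2 and M phase and more mitotic RNA per cell cannot be told apart.

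None of the differences passed the test after adjustment. Limma, fitted to all 15438 expressed genes with the 2 knockdown lines against the control, called 0% of genes at an adjusted p of 0.05. The lowest adjusted p of a mitosis gene was 0.255, for Mki67. At an unadjusted limma p under 0.05, 15 of the 67 genes were higher and 2 were lower, where 4.53% of all expressed genes were higher and 9.44% lower. All 15 of the higher genes belonged to the 45 genes of mitosis, and the 2 lower ones were transport kinesins. Both lines stood at least 1.5-fold above shCtrl for 3 genes (Mki67, Kif4 and Kif21b) and at least 1.5-fold below it for 1 (Kif17). Kif21b was over 0.3 FPKM only in shGR1 (0.316 FPKM) and Kif17 only in shCtrl (0.312 FPKM). The filter itself favoured these directions, so these counts hold no evidence from those 2 genes. Over all expressed genes 6.28% were at least 1.5-fold higher and 7.96% at least 1.5-fold lower. The count differed between the lines. In shGR1 alone 18 of the 67 genes were at least 1.5-fold higher and 4 at least 1.5-fold lower, beside 10.7% and 14% of all expressed genes, and in shGR2 alone 3 and 1, beside 8.88% and 12.5%.

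**Figure D1:**
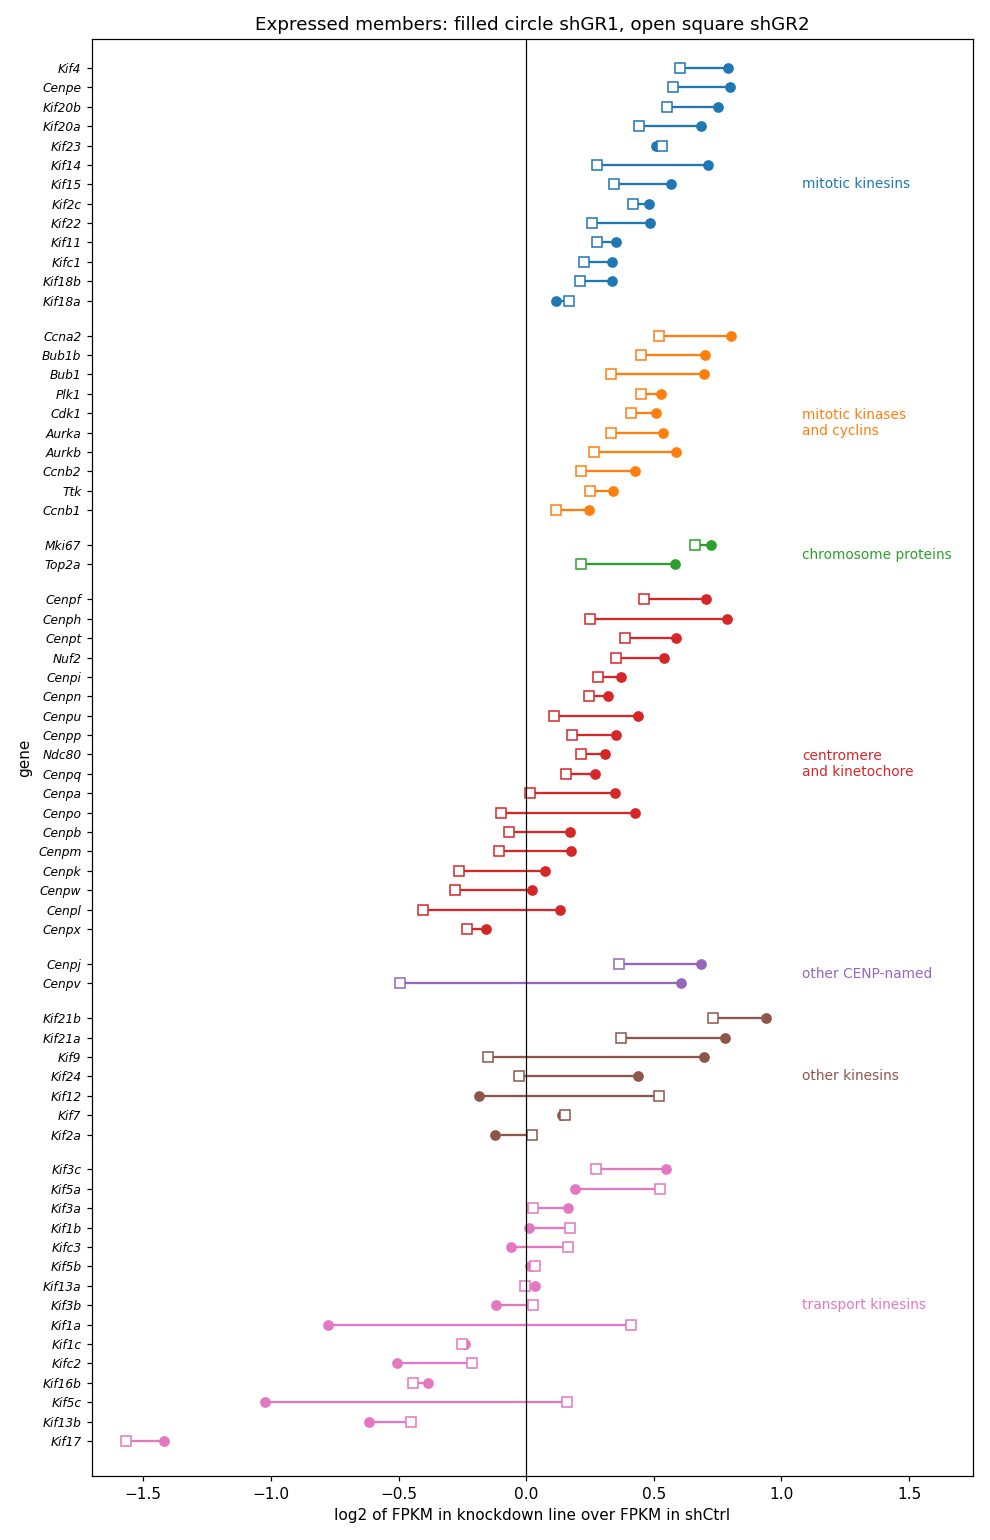
Log2 ratio of FPKM in each knockdown line to FPKM in shCtrl (horizontal axis) for the 67 expressed genes, grouped by role, with a filled circle for shGR1 and an open square for shGR2. All 13 mitotic kinesins and all 10 kinases and cyclins lie to the right of 0 in both lines, whereas the 15 transport kinesins lie on both sides.

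Mki67, whose protein coats mitotic chromosomes and is the common marker of proliferating cells (chromosome 7, 135689784 to 135716361, minus strand, GRCm38), was at 46.4 FPKM in shCtrl, 76.5 FPKM in shGR1 and 73.3 FPKM in shGR2. The 2 knockdown lines lay close together and 1.65- and 1.58-fold above the control. The limma log2 difference was 0.69 (SE 0.09), with an unadjusted p of 0.00344 and an adjusted p of 0.255. Top2a, the topoisomerase that disentangles sister chromatids, was measured at 103 FPKM in shCtrl, 155 FPKM in shGR1 and 120 FPKM in shGR2, with shGR2 nearer to the control than to shGR1.

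All 13 mitotic kinesins were above shCtrl in both knockdown lines. Their median log2 ratio was 0.51 in shGR1 and 0.34 in shGR2, folds of 1.42 and 1.27, and their summed abundance was 264 FPKM in shCtrl, 382 FPKM in shGR1 and 357 FPKM in shGR2. Of the 13, 6 had an unadjusted limma p under 0.05 (Kif4, Cenpe, Kif20b, Kif20a, Kif23 and Kif2c), with adjusted p from 0.278 upward. Kif2a, a depolymerase of interphase and mitosis, was placed with the kinesins of other roles, so the count of 13 leaves it out. Its ratios to shCtrl were 0.92 in shGR1 and 1.02 in shGR2.

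By summed FPKM the highest ratios belonged to motors of the chromosome arms, the kinetochore and the cleavage site. Kif4, a chromokinesin that also shapes the central spindle (chromosome X, 100625737 to 100727214, plus strand, GRCm38), was at 10.3 FPKM in shCtrl, 17.8 FPKM in shGR1 and 15.6 FPKM in shGR2. Cenpe, the kinetochore motor that carries chromosomes to the spindle equator (chromosome 3, 135212537 to 135273611, plus strand), was at 16.4, 28.5 and 24.4 FPKM in the same order. Kif20b, a motor of cytokinesis, was at 16.0, 27.0 and 23.5 FPKM. For these 3 genes the knockdown libraries lay 1.47- to 1.74-fold above the control, and the mean log2 ratios were 0.70, 0.69 and 0.65.

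The central spindle motors Kif23 and Kif20a came next, together with Kif14. Kif23, the motor of the centralspindlin complex and the most abundant mitotic kinesin, was at 100 FPKM in shCtrl, 142 FPKM in shGR1 and 145 FPKM in shGR2. Here the 2 lines were almost equal, and the limma log2 difference was 0.52 (SE 0.08, adjusted p 0.278). Kif20a, which brings Aurora B to the midzone, was at 17.0, 27.2 and 23.1 FPKM, and Kif14, a midbody motor that binds citron kinase, at 4.25, 6.95 and 5.15 FPKM. Kif14 differed more between the knockdown lines, at 1.64-fold of the control in shGR1 and 1.21-fold in shGR2.

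Of the motors that build and focus the bipolar spindle, Kif15 stood at the median of the mitotic kinesins (mean log2 ratio 0.45), and Kif11 and Kifc1 lay lower. Kif15, which helps to keep the spindle poles apart, was at 18.7 FPKM in shCtrl, 27.7 FPKM in shGR1 and 23.7 FPKM in shGR2. Kif11, the motor that drives the poles apart, had the lowest abundance of the mitotic kinesins, at 2.06, 2.63 and 2.50 FPKM. Kifc1, a minus-end motor that gathers microtubules at the poles, was at 23.7, 29.9 and 27.7 FPKM. In all 3 genes shGR1 was the highest library and shCtrl the lowest. The order of the mitotic kinesins given here is that of summed FPKM. With transcripts weighted by length, Kif15 had a mean log2 ratio of 0.55 and Kif4 one of 0.53.

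The chromokinesin Kif22, which pushes chromosome arms away from the poles, was at 15.2 FPKM in shCtrl, 21.3 FPKM in shGR1 and 18.2 FPKM in shGR2. Among the kinesins that shorten microtubule ends, Kif2c, which corrects wrong kinetochore attachments, was at 13.1, 18.3 and 17.5 FPKM, and Kif18b, which acts on astral microtubules, at 16.1, 20.3 and 18.6 FPKM. Kif18a, which damps the movements of aligned chromosomes, had the smallest ratios of the group, at 10.7, 11.6 and 12.0 FPKM. From Kif4 to Kif18a the mean log2 ratios covered 0.56, where the median spread between the 2 lines of a mitotic kinesin was 0.13 (SD), so that the ends of this order differ beyond that spread, and neighbours, at most 0.13 apart, do not.

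Transport kinesins showed no common direction. Of the 15, 5 were above shCtrl in both lines (33.3%), 5 below (33.3%) and 5 on either side. Of all expressed genes 31.8% were above and 43.8% below, so the share above is not particular to transport kinesins. Their median log2 ratio was -0.12 in shGR1 and 0.03 in shGR2, and their summed abundance was 271 FPKM in shCtrl, 256 FPKM in shGR1 and 269 FPKM in shGR2. The median of the mitotic kinesins exceeded that of the transport kinesins by 0.63 on the log2 scale in shGR1 and by 0.31 in shGR2. Only 2 transport kinesins, Kif3c and Kif5a, had a mean log2 ratio above the lowest mitotic kinesin.

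**Figure D2:**
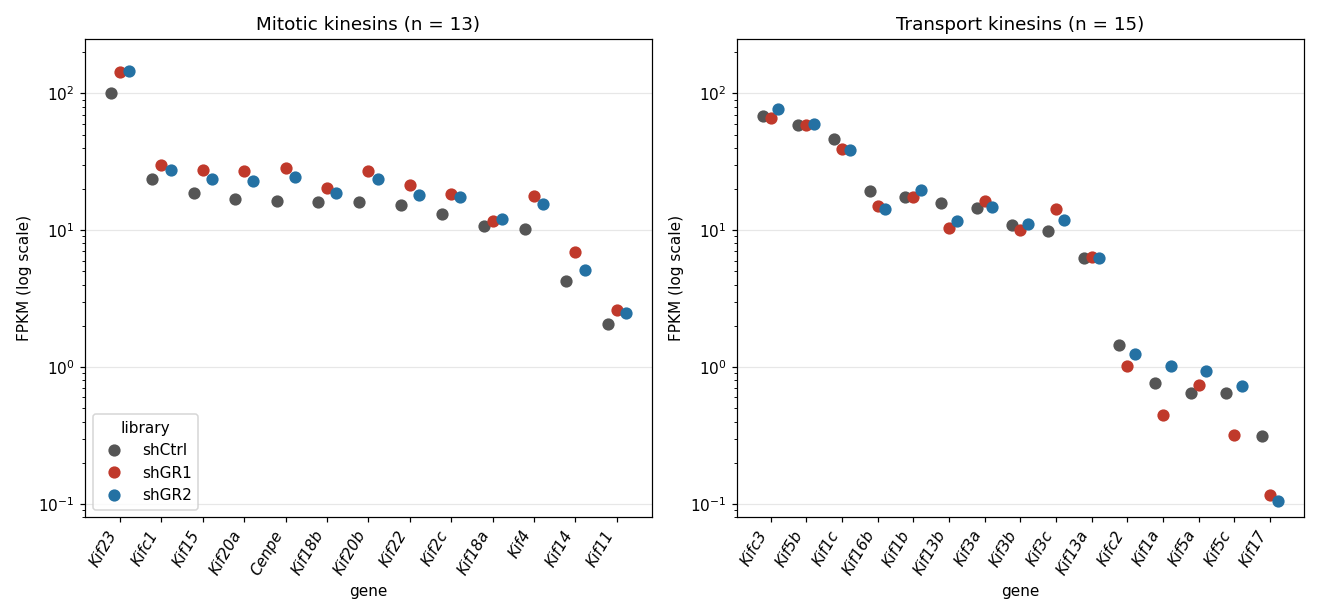
FPKM on a log axis in the 3 libraries (grey shCtrl, red shGR1, blue shGR2) for the 13 mitotic kinesins (left) and the 15 transport kinesins (right), each ordered by the control level. In every mitotic kinesin both coloured points lie above the grey one, from Kif23 at 100 FPKM in shCtrl to Kif11 at 2.06 FPKM, whereas the order varies among transport kinesins.

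The abundant transport motors differed little between libraries. Kif5b, the heavy chain of conventional kinesin in most tissues, was at 58.3 FPKM in shCtrl, 58.8 FPKM in shGR1 and 59.7 FPKM in shGR2. Kifc3, a minus-end motor of epithelial cells, was at 68.6, 65.8 and 76.9 FPKM. The ciliary motor subunits Kif3a and Kif3b were at 14.6, 16.3 and 14.9 FPKM and at 10.9, 10.0 and 11.1 FPKM. The largest ratio among these 4 genes was 1.12, for Kifc3 in shGR2.

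Lower transcripts were found among the vesicle motors. Kif13b, which carries membrane cargo towards microtubule plus ends (chromosome 14, 64647265 to 64809617, plus strand, GRCm38), was at 15.9 FPKM in shCtrl, 10.4 FPKM in shGR1 and 11.6 FPKM in shGR2. Kif16b, which positions early endosomes, was at 19.5, 14.9 and 14.3 FPKM. These were the 2 transport kinesins with an unadjusted limma p under 0.05, with log2 differences of -0.53 (SE 0.15, adjusted p 0.321) and -0.41 (SE 0.12, adjusted p 0.324). Kif1c, a vesicle motor of the same class, was at 46.0, 39.0 and 38.7 FPKM, and Kifc2, a minus-end motor, at 1.45, 1.02 and 1.25 FPKM. Kif17, a motor of cilia and dendrites, was just over the limit of expression at 0.312, 0.117 and 0.105 FPKM, a level that corresponds to very roughly 26, 11 and 9.7 fragments.

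Kif1b, a motor of mitochondria and synaptic vesicle precursors, was at 17.3 FPKM in shCtrl, 17.5 FPKM in shGR1 and 19.5 FPKM in shGR2, and Kif13a, which moves endosomes, at 6.27, 6.42 and 6.24 FPKM. The neuronal motors Kif1a, Kif5a and Kif5c stayed at or under 1.03 FPKM. Kif1a and Kif5c were lower in shGR1 (0.450 and 0.320 FPKM) and higher in shGR2 (1.03 and 0.725 FPKM) than in shCtrl (0.771 and 0.649 FPKM), and Kif5a was at 0.651, 0.744 and 0.936 FPKM. Kif3c, a further subunit of the ciliary motor family, had the highest mean log2 ratio of the group (0.41) at 9.83, 14.4 and 11.9 FPKM, although Kif5a and Kif1a had higher ratios in shGR2. On the opposite strand 1110002L01Rik overlaps Kif3c over an exon stretch of 2617 bases and was at 6.24, 10.0 and 6.60 FPKM, and with the strand of the libraries not given the reads of the 2 genes cannot be told apart.

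The kinesins of other roles were mostly scarce. In the order shCtrl, shGR1 and shGR2, Kif2a, a microtubule depolymerase of interphase and mitosis, was at 27.4, 25.2 and 27.9 FPKM, and Kif12 at 12.1, 10.6 and 17.3 FPKM. Kif24, which restrains the growth of cilia, was at 4.60, 6.24 and 4.51 FPKM, and Kif7, a ciliary regulator of Hedgehog signalling, at 1.42, 1.56 and 1.58 FPKM. Kif21b, which limits microtubule growth, was at 0.165, 0.316 and 0.273 FPKM, its relative Kif21a at 0.330, 0.567 and 0.427 FPKM, and Kif9, a motor of motile cilia, at 0.506, 0.820 and 0.456 FPKM. Of these 7 genes, 3 were above shCtrl in both lines and none below in both, and the unadjusted limma p was 0.297 or higher for each.

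All 10 kinases and cyclins of mitosis were above shCtrl in both knockdown lines. Their median log2 ratio was 0.53 in shGR1 and 0.33 in shGR2, and 5 of the 10 had an unadjusted limma p under 0.05 (Ccna2, Bub1b, Plk1, Cdk1 and Aurka), with adjusted p from 0.288 upward. Their summed abundance was 484 FPKM in shCtrl, 721 FPKM in shGR1 and 628 FPKM in shGR2.

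Cdk1, the kinase that drives the entry into mitosis, was at 139 FPKM in shCtrl, 198 FPKM in shGR1 and 185 FPKM in shGR2. Of its partners, Ccna2 (cyclin A2) was at 111, 194 and 160 FPKM, the largest ratios of the group. Ccnb2 was at 53.1, 71.5 and 61.6 FPKM and Ccnb1 at 44.8, 53.0 and 48.5 FPKM, so that the B-type cyclins lay nearer to the control than the A-type cyclin. Among the kinases of the spindle, Plk1, the Polo kinase of centrosome maturation and cytokinesis, was at 22.3, 32.1 and 30.5 FPKM. Aurka, which acts at the poles, was at 27.3, 39.6 and 34.4 FPKM, and Aurkb, the kinase of the chromosomal passenger complex, at 25.0, 37.6 and 30.1 FPKM. In each of the 3 the control was the lowest library. The checkpoint kinases Bub1 (27.0, 43.8 and 34.0 FPKM) and Ttk (11.7, 14.8 and 13.9 FPKM) and the checkpoint protein Bub1b (22.6, 36.7 and 30.8 FPKM) showed the same order of the libraries.

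The centromere and kinetochore genes were less uniform. Of 19 genes, 12 were above shCtrl in both lines, 6 were above it in shGR1 and below it in shGR2, and Cenpx was below in both, with median log2 ratios of 0.35 in shGR1 and 0.16 in shGR2. Besides Cenpe, Cenpf, a large protein of the outer kinetochore and its corona, was at 24.5 FPKM in shCtrl, 39.9 FPKM in shGR1 and 33.7 FPKM in shGR2. The microtubule-binding NDC80 complex was represented by Nuf2 at 22.3, 32.4 and 28.5 FPKM and Ndc80 at 21.1, 26.2 and 24.5 FPKM. Cenpt, which links the inner centromere to NDC80, was at 21.02, 31.6 and 27.5 FPKM. Of these, Cenpe, Cenpf, Cenpt and Nuf2 had an unadjusted limma p under 0.05, with adjusted p of 0.288 to 0.337.

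The inner centromere proteins included those nearest to the control. Cenpa, the histone H3 variant that marks the centromere, was at 52.6 FPKM in shCtrl, 67.0 FPKM in shGR1 and 53.1 FPKM in shGR2. Cenpb, which binds centromeric satellite DNA, was at 30.0, 33.8 and 28.6 FPKM. Cenph, a subunit of the inner centromere network, had the largest gap between the lines among those above the control, at 10.1, 17.5 and 12.1 FPKM. At the lower end of the order were the network subunits Cenpl (9.37, 10.3 and 7.09 FPKM), Cenpw (13.96, 14.2 and 11.5 FPKM), Cenpk (10.4, 10.9 and 8.66 FPKM) and Cenpx (15.8, 14.2 and 13.5 FPKM). Over the 13 subunits of the inner centromere network named Cenp, Cenpa and Cenpb not counted, 7 were above shCtrl in both lines, 5 on either side and 1 below, with a median log2 ratio of 0.32 in shGR1 and 0.11 in shGR2. Cenpj and Cenpv share the name but not the place: Cenpj, a builder of centrioles, was at 4.53, 7.29 and 5.83 FPKM, and Cenpv at 0.731, 1.11 and 0.520 FPKM.

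The 2 knockdown lines were ordered alike across the mitosis genes. Of the 67 expressed genes, 53 were more abundant in shGR1 than in shGR2 (79.1%), and the same held for 55.6% of all expressed genes. It held for 19 of 19 centromere and kinetochore genes, 10 of 10 kinases and cyclins and 11 of 13 mitotic kinesins, all but Kif23 and Kif18a. Among transport kinesins it held for 6 of 15. The shGR1 library had the lower Nr3c1, at 4.41 against 9.13 FPKM. The paper, however, reports nearly equal reductions of the receptor mRNA in shGR1 and shGR2, by a measure that may differ from FPKM. Whether the residual receptor bears on the order of the lines was not tested with 1 library per line.

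**Figure D3:**
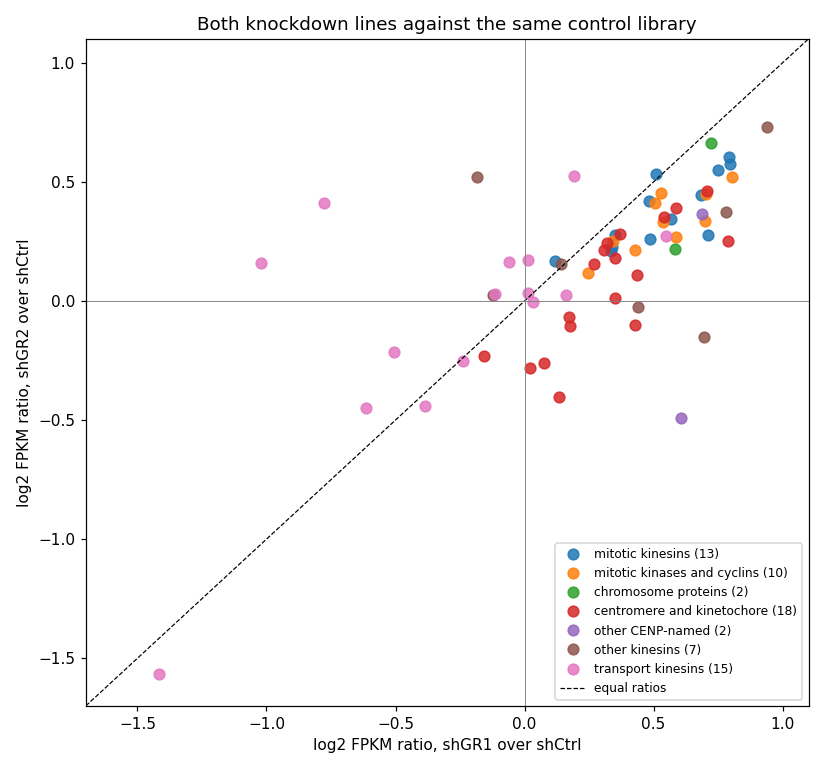
Log2 FPKM ratio to shCtrl in shGR1 (horizontal) and in shGR2 (vertical) for the 67 expressed genes, coloured by role, with the dashed line marking equal ratios. Most mitosis genes lie right of 0 and below the dashed line, at the higher value in shGR1, and both axes share the control library, which by itself draws points along the diagonal.

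Promoters were read for a feature that the choice by name did not use. Many genes of G2 and M phase are known to carry a cell cycle genes homology region, a short element near the start that is bound by MuvB complexes and, with CCAAT boxes upstream, gives them their timing. The element was searched as TTTGAA or TTTAAA on either strand (TTTGAA reads TTCAAA on the other strand, and TTTAAA is its own reverse complement) within 60 bases before to 50 bases after the start sites given by RefSeq on GRCm38.p6. A match was found for 10 of the 12 mitotic kinesins with a promoter entry (83.3%), 7 of 8 kinases and cyclins (87.5%), 6 of 19 centromere and kinetochore genes (31.6%) and 1 of 10 transport kinesins (10.0%, Kif1a). Over all expressed genes with a promoter entry the share was 6.55% of 9864, and over all genes 10.5% of 27025. CCAAT on either strand, searched in the whole 300 bases, was found for 8 of 12 mitotic kinesins, 8 of 8 kinases and cyclins and 3 of 10 transport kinesins, against 43.2% of expressed genes. A match of such short letters is a description of the sequence and not a bound site.

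**Figure D4:**
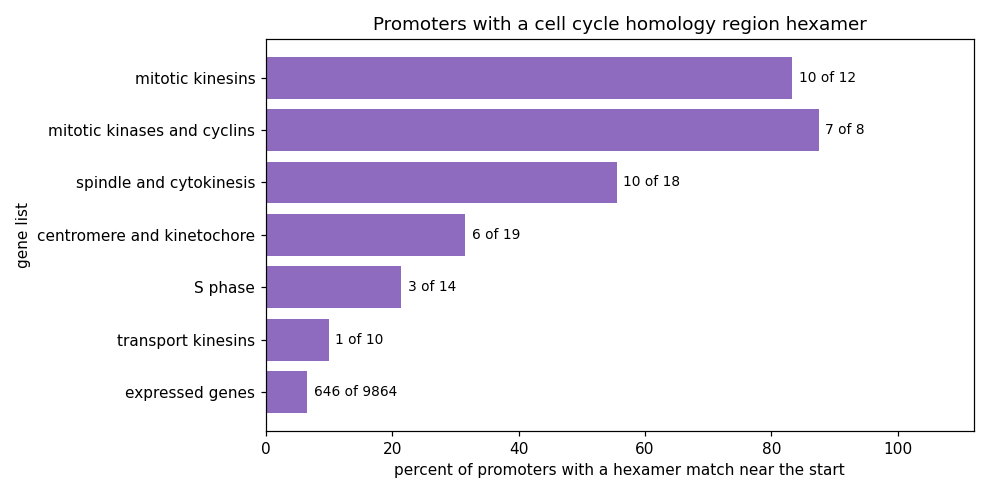
Percent of genes with a promoter entry (horizontal axis) that hold TTTGAA or TTTAAA on either strand near the start, for lists of genes (vertical axis), with the number of genes beside each bar. Mitotic kinesins (10 of 12) and mitotic kinases and cyclins (7 of 8) stand far to the right of transport kinesins (1 of 10) and of expressed genes (6.55%).

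The windows from 60 bases before to 50 bases after the start are given below for 3 cell cycle regulators and 6 mitotic kinesins, to show where the element lies. Each is written 5′ to 3′ on the strand of the gene with the matched letters in capitals, and the coordinates are those of the printed window on GRCm38.p6.
Cdk1 (chr10:69352863-69352972, - strand): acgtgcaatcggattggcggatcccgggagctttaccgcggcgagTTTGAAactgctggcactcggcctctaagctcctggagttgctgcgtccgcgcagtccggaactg
Plk1 (chr7:122159375-122159484, + strand): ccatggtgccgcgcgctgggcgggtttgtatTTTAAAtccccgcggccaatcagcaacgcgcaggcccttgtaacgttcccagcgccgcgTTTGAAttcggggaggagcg
Ccnb2 (chr9:70421505-70421614, - strand): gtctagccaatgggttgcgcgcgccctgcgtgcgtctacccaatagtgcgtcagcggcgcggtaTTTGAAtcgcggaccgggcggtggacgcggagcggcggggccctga
Cenpe (chr3:135212503-135212612, + strand): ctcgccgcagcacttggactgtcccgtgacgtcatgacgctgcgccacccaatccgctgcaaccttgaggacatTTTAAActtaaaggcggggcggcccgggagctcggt
Kif23 (chr9:61946750-61946859, - strand): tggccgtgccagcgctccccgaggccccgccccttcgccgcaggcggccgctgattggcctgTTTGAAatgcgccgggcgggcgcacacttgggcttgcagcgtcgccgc
Kif20b (chr19:34922298-34922407, + strand): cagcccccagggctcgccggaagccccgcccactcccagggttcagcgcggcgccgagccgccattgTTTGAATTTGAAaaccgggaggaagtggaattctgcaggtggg
Kif4 (chrX:100626005-100626114, + strand): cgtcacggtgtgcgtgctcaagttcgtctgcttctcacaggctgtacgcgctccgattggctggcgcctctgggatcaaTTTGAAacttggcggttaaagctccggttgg
Kif22 (chr7:127042371-127042480, - strand): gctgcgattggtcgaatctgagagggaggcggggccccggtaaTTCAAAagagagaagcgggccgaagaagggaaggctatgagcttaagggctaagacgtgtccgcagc
Kif11 (chr19:37376322-37376431, + strand): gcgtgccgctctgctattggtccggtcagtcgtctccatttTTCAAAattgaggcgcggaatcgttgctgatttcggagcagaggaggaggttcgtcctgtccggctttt
In Ccnb2 and Kif23 the match began at bases 5 and 3 of the transcript, and in Cdk1 15 bases before its start. Kif20b held TTTGAA 2 times in direct succession, and Plk1 held a match on each side of the start. The start of Kif4 lies 328 bases from the nearest one in GENCODE M21, and those of the other 8 genes lie within 26 bases of such a start. Kif2c and Kif18a were the mitotic kinesins with a promoter entry and no match, and their mean log2 ratios were 0.45 and 0.14, so that both a middle and the lowest value of the group stood without these letters in the window.

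Partners of these proteins, from lists that the choice by name did not take, lay on the same side of the control in most cases. All 16 genes of a list of further centromere and kinetochore partners were above shCtrl in both lines, with a median log2 ratio of 0.31 and 3 at an unadjusted limma p under 0.05. The list holds the chromosomal passenger complex, the KNL1, MIS12 and SPC24 layer of the kinetochore, the SKA complex, Zwint, Zw10 and the centromere protein gene Cenpc1. Knl1, the scaffold for checkpoint proteins, was at 12.4 FPKM in shCtrl, 20.9 FPKM in shGR1 and 16.8 FPKM in shGR2, and Incenp, the scaffold of Aurora B, at 24.9, 33.9 and 31.7 FPKM. Of 22 spindle and cytokinesis genes 21 were above in both lines (median 0.38, 11 at an unadjusted limma p under 0.05), including the spindle pole protein Aspm at 13.0, 21.1 and 18.4 FPKM. The exception was Nek2, a centrosome kinase, at 1.81, 1.58 and 1.30 FPKM.

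Of 18 condensin, cohesin and separase genes 15 were above shCtrl in both lines and 2 below (median 0.23), from the condensin subunit Ncapd2 at 59.2, 95.0 and 87.3 FPKM to the cohesin subunit Stag2 at 74.3, 63.8 and 49.9 FPKM. The checkpoint and the anaphase-promoting complex were mixed, with 10 of 19 above, 3 below and a median of 0.05. There Ube2s, the ubiquitin-conjugating enzyme that extends chains for that complex, was at 58.3, 133 and 95.1 FPKM, whereas the subunit Anapc11 was at 70.3, 57.1 and 57.5 FPKM. The 7 genes of FOXM1, B-MYB and the MuvB core, the regulators bound to the element above, had a median of 0.08, with 5 above shCtrl in both lines and 2 below. Foxm1 was at 34.6, 41.3 and 41.3 FPKM and Mybl2 at 24.0, 31.9 and 26.4 FPKM, and the MuvB subunits Lin37 (6.90, 4.86 and 5.99 FPKM) and Lin52 (15.1, 13.3 and 13.8 FPKM) were those below.

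Genes of DNA replication went both ways. Of 18 S phase genes 12 were above shCtrl in both lines and 5 below, beside 31.8% and 43.8% of all expressed genes, with a median log2 ratio of 0.11, and their difference from the mitosis genes was not tested. Tyms, which makes thymidylate, was at 34.6, 55.2 and 50.4 FPKM, and the helicase subunit Mcm7 at 181, 245 and 232 FPKM, whereas the licensing factor Cdt1 was at 62.0, 50.7 and 42.7 FPKM and the G1 cyclin Ccne2 at 23.8, 18.3 and 18.6 FPKM. Partners of the transport motors also went both ways. Of 11 kinesin light chains and cargo adaptors 4 were above in both lines and 5 below, and of 13 dynein and dynactin subunits 4 and 5, with a median of -0.03 in each list. The shares above, 36.4% and 30.8%, lay near the 31.8% of all expressed genes. The adaptor Trak1 was at 22.1, 15.3 and 16.9 FPKM and the dynein subunit Dync1li2 at 75.2, 95.0 and 90.2 FPKM, with unadjusted limma p of 0.0338 and 0.0389. No gene of these lists passed limma at an adjusted p of 0.05.

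Summed FPKM can be carried by short transcripts, so that the transcripts over 1 FPKM were read singly. Of 34 such transcripts of mitotic kinesins 30 were above shCtrl in both lines and 2 below, and of 36 of kinases and cyclins 28 and 2. Of 49 centromere and kinetochore transcripts 25 were above and 8 below, and of 35 transport kinesin transcripts 12 and 12, where 34.8% of all 32595 transcripts were above and 41.9% below. In 36 of 40 genes with at least 2 such transcripts the same transcript was the most abundant in all 3 libraries.

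Cdk1 and Plk1 were among several genes that differed between libraries in which transcripts made up the sum. In Kif20a the coding transcript of 3567 bases held 52.7% of the sum in shCtrl, 91.1% in shGR1 and 84.0% in shGR2. In Nuf2 that of 2068 bases held 69.3%, 84.7% and 82.4%. A Ccna2 transcript of 856 bases annotated as a retained intron was at 0.910, 16.1 and 7.60 FPKM. Most of the Cdk1 abundance came from a transcript of 475 bases annotated as a retained intron, at 80.0 FPKM in shCtrl, 127 FPKM in shGR1 and 121 FPKM in shGR2, while the 3 coding transcripts over 1 FPKM differed in direction. Those of 1253 bases (27.1, 32.5 and 31.2 FPKM) and of 695 bases (21.4, 28.9 and 23.6 FPKM) were above shCtrl in both lines, and that of 4375 bases was below it at 9.92, 5.85 and 5.89 FPKM. With each transcript weighted by its length, Cdk1 stood at 1.13-fold of the control in shGR1 and 1.07-fold in shGR2, against 1.42- and 1.33-fold by summed FPKM. The main coding transcript of Plk1 was at 18.5, 19.6 and 20.1 FPKM, and the gene's higher sum came mostly from a transcript of 722 bases annotated for nonsense-mediated decay, at 3.75, 12.5 and 10.4 FPKM. The length-weighted ratios of Plk1 were 1.20 and 1.19. Mki67 (1.66 and 1.59), Cenpe (1.74 and 1.51) and Kif20b (1.68 and 1.47) kept their ratios under the same weighting, and Kif4 stood at 1.53 and 1.37.

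Several of these genes overlap a gene on the opposite strand, whose reads cannot be told apart without the strand of the libraries. The longest exon overlaps among mitosis genes were those of Kif20a with Cdc23 (977 bases), Cenpu with Primpol (912 bases), Kif4 with Pdzd11 (683 bases) and Ccna2 with Exosc9 (428 bases). The partners stood near the control for Kif20a, Kif4 and Ccna2, with Cdc23 at 17.6, 19.4 and 17.1 FPKM, Pdzd11 at 13.8, 14.2 and 12.6 FPKM and Exosc9 at 23.2, 24.0 and 19.7 FPKM, and Primpol was at 31.5, 37.8 and 26.6 FPKM.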

How the data were processed

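The authors sequenced 1 library per line and deposited FPKM for 128603 Ensembl transcripts. Per the submitters' processing notes, reads were handled with bcl2fastq 2.20, HISAT2, Cufflinks 2.2.1 and Cuffdiff on GRCm39. Of 128066 transcripts found in GENCODE M21, 98.6% had their GRCm38 position within the locus given, so that positions here are on GRCm38. The deposited ratios, log2 ratios, p-values and q-values of the authors' own comparisons were not used. With no read counts, counting error could not be given, and fragment numbers are rough, from the FPKM steps of single-transcript genes.

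FPKM were summed per symbol (pandas 2.3.3). Ratios have no pseudocount. Limma 3.58.1 (R 4.3.3) was fitted to log2(FPKM + 0.1) of genes over 0.3 FPKM in any library, with an abundance trend, the 2 knockdown lines against the control, 1 residual degree of freedom and Benjamini-Hochberg adjustment. The lone control is assumed to vary like the knockdown lines. P-values rest on the spread between these lines, moderated towards the abundance trend over all genes (2.2 prior degrees of freedom). They hold no measured spread of the control. The script was tested on simulated data. Motifs were searched in RefSeq promoters (250 bases before to 50 after the start), found for 63 of 73 genes.

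The members and lists were chosen with earlier results of these data known. All members could be named. Of the other role groups the 4 highest and 3 lowest were given with values, and from each further list up to 3 highest and 2 lowest genes that averaged 1 FPKM or more. Values were also given beyond this rule, for genes such as Cenpa, Cenpb and Cenpk. Alternatives were median-centring, quantile normalization, removal of a length trend, other filters and pseudocounts, robust moderation, the most abundant transcript alone, and each knockdown line left out. Chosen after seeing the data were protein-coding transcripts only and length weighting.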

Additional observations from a re-analysis of the deposited data

How the results depend on the processing

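All 13 mitotic kinesins and all 10 kinases and cyclins stayed above shCtrl in both knockdown lines under all 8 alternative ways of scaling, filtering or summing. Some of these settings could not have turned a direction. The filter at 1 FPKM and the lack of a filter left these ratios unchanged, and median-centring raised all of them. Being above in each line alone follows from being above in both, so leaving a line out was no further check. The median of the mitotic kinesins was 0.45 (mean of the lines), with 0.34 for shGR2 alone and 0.51 for shGR1 alone. That of the transport kinesins was -0.04, with 0.03 and -0.12 for the same lines, -0.18 as a mean over the members and -0.17 with the most abundant transcript alone. The depth of FPKM values is known only roughly, with 1 library per line, so genes under 1 FPKM are the least certain.

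With a line left out, 51 (shGR2 alone) to 55 (shGR1 alone) of the 67 genes were above shCtrl and 16 to 12 below. Of the transport kinesins 9 (shGR2 alone) and 6 (shGR1 alone) were above and 6 and 9 below. The genes at least 1.5-fold higher were 3 to 18 and those at least 1.5-fold lower 1 to 4. No limma fit was possible with a line left out, since no residual degree of freedom remains. No paired analysis was possible because the control has 1 library and shares fewer than 2 replicate numbers with the knockdown lines.

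With the most abundant transcript alone, 11 genes were below shCtrl in both lines, 5 were at least 1.5-fold higher and 1 transport kinesin was above in both. Length weighting gave 3 transport kinesins above. The genes at least 1.5-fold higher were also 5 with median-centring, with quantile normalization and with no filter, and over 1 FPKM 0 were 1.5-fold lower. Over all expressed genes, 40.0% were above and 35.5% below with quantile normalization, and 38.6% and 37.1% with the length trend removed.

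Limma called genes in some alternatives only: 66 higher and 155 lower with median-centring, 28 and 82 with robust moderation, 44 and 85 with the length trend removed, and 75 and 286 with protein-coding transcripts only. Without adjustment, 699 genes were higher and 1458 lower at p under 0.05 in limma as reported. Of the 67 members 1 was called by limma, Mki67, with median-centring (adjusted p 0.0453), beside 66 higher and 155 lower of 15438 genes. It was also called with protein-coding transcripts only (adjusted p 0.0308), beside 75 higher and 286 lower genes. A single call beside these counts is not read as a result about the members. The adjusted limma p of Mki67 ran from 0.0308 to 0.395 over all alternatives. Members at an unadjusted limma p under 0.05 were 24 higher with median-centring and with the length trend removed, 23 higher and 0 lower with quantile normalization, and 8 higher and 4 lower with no filter. Shares of all genes at that p were not computed for these settings, so these counts are not read as a result about the members. The split of all expressed genes moved too, to 37.6% above shCtrl in both lines and 38.1% below with median-centring.

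Directions turned for genes near 0 or with several transcripts, and the cause was not tested. The limma log2 difference became 0.00167 for Kif3b with median-centring. With quantile normalization it became 0.00801 for Kif2a and 0.0247 for Kif3b, and with the length trend removed 0.00973 for Cenpk. With the most abundant transcript alone it became 0.24 for Cenpl, -0.00071 for Cenpo, -0.19 for Kif1b, -0.0194 for Kif5b, -0.85 for Kif9 and -0.46 for Kifc3. With protein-coding transcripts only it became -0.21 for Kif12 and -0.0194 for Kif5b. With length weighting it became 0.14 for Cenpl, 0.00483 for Kif1a, -0.0149 for Kif5b and -0.0371 for Kifc3.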
